A study of Homo sapiens with 8 samples.

Results

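Translation elongation factors are the proteins that carry aminoacyl-tRNAs to the ribosome and move it along the mRNA. The factors described here are the genes with the symbols EEF1A1, EEF1A2, EEF1B2, EEF1D, EEF1G, EEF1E1, EEF2 and EEF2K, chosen by name as the cytosolic elongation machinery and its kinase. Of these 8 symbols, 6 had a row among the 4616 genes of the authors' deposited table of translational efficiency (TE, footprints over mRNA). EEF1E1 and EEF2K had 0 rows under these or older symbols and were not analysed here.

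The data come from WM902B, a human cell line from a primary melanoma with the label BRAFV600E, at passage 18. Cells were infected with a scrambled hairpin (shSCR) or with a hairpin against the long non-coding RNA TINCR (shTINCR). The series has 4 libraries of ribosome-protected fragments and 4 of RNA, that is 2 biological replicates for each hairpin and kind of library. All cells, controls included, carried a hairpin and received 100 µg/ml cycloheximide, which halts elongating ribosomes, for 5 min. Each condition rests on 1 cell line, and 1 hairpin label stands for TINCR. The RNA libraries are titled as total RNA but labelled as polyA RNA.

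In the elongation cycle, eEF1A bound to GTP delivers the aminoacyl-tRNA, the eEF1B complex exchanges the GDP that eEF1A is left with for GTP, and eEF2 moves the ribosome to the next codon. EEF1A1 and EEF1A2 encode closely related isoforms of eEF1A, of which EEF1A2 is known from neurons and muscle. EEF1B2, EEF1D and EEF1G encode the subunits of eEF1B. EEF1E1 encodes a protein of the multi-tRNA synthetase complex, and EEF2K the kinase that phosphorylates and inactivates eEF2. Many mRNAs of ribosomal proteins and elongation factors belong to the TOP class (terminal oligopyrimidine), whose transcripts begin with a C followed by a run of C and T letters and whose translation is known to depend on mTORC1 and LARP1.

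The letters at the transcription start are shown because they define that class. Each window holds 30 bases of the transcribed strand of RefSeq GRCh38.p14, the last 10 before the annotated start and the first 20 from it. Capitals mark the first run of C and T letters at or after the annotated start. EEF1B2 has 2 annotated starts, and TPT1, a gene that is no elongation factor but encodes a binding partner of eEF1A, is added.
EEF2 (chr19:3985444-3985473, minus strand): cgtcagcgttCTCTTCCgccgtcgtcgccg
EEF1A1 (chr6:73521013-73521042, minus strand): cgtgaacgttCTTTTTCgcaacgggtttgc
EEF1B2, start 2 (chr2:206159885-206159914, plus strand): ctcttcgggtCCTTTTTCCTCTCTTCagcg
EEF1B2, start 1 (chr2:206159599-206159628, plus strand): aagtggccccagCCTCgaggccgggcgtct
EEF1G (chr11:62573872-62573901, minus strand): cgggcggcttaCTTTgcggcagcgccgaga
TPT1 (chr13:45341164-45341193, minus strand): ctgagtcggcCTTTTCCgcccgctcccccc

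EEF2 and EEF1A1 each began at the annotated start with a run of 7 pyrimidines, and the second start of EEF1B2 with one of 16. In EEF1G the annotated start was followed at position 2 by a run of 4, and the first start of EEF1B2 had a run of 4 from position 3. A TOP-like start was counted where the annotated start was a C followed directly by at least 4 letters that were each C or T, on the transcribed strand only. By this count EEF2, EEF1A1, EEF1B2 (start 2) and TPT1 had one and EEF1G had none. Of 3857 measured genes with a window, 8.66% had such a start at one or more annotated starts, and so had 4.07% of all 35116 windows in the RefSeq table. Allowed anywhere within 20 bases of the start, the same letters were found in 55.5% of the measured genes, or in 82.4% when either strand counted, so the looser search separates few genes. EEF1A2 and EEF1D have no window here. Which start the cells used was not measured.

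TE of 5 of the 6 measured elongation factors fell in shTINCR cells and that of EEF1A2 did not pass the test, at an adjusted p below 0.05 in the authors' deposited table. Over all genes, 16.4% passed in either direction: 8.17% fell and 8.23% rose. The median log2 change of the 6 factors was -0.58 (0.670-fold), against 0.02 (1.01-fold) over all 4616 genes. The table holds 1 value per condition and no value or error per library, so the spread between the 2 replicates and the depth behind each value are unknown. A change in footprints cannot be told apart from one in mRNA, and all TE values are relative to the typical gene, since the median log2 TE was 0.0078 in shSCR and 0.0019 in shTINCR cells.

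**Figure D1:**
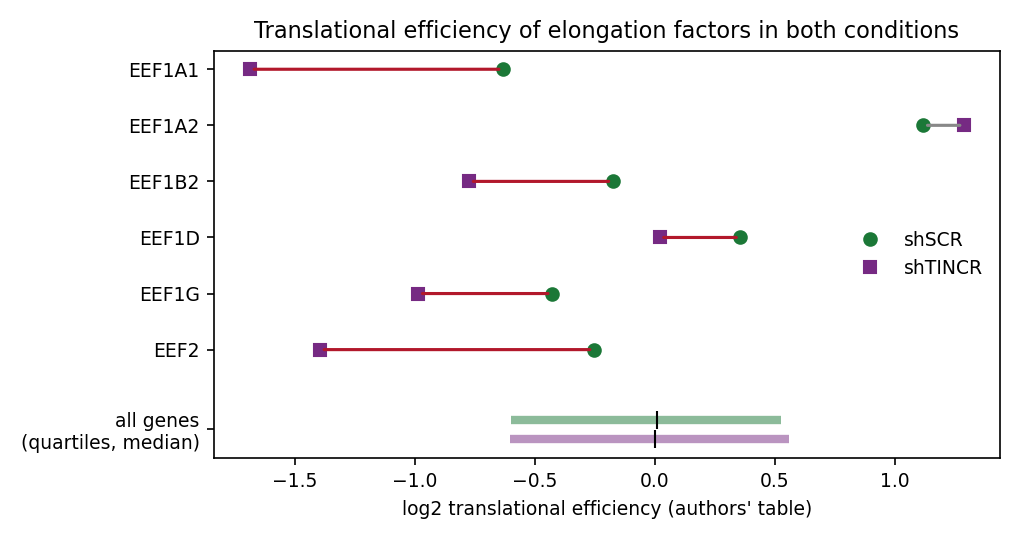
Log2 TE of the 6 measured elongation factors in shSCR (circles) and shTINCR cells (squares) from the authors' deposited table, 1 value per condition. Red lines join the values of genes that fell and the grey line those of EEF1A2, which did not pass; the bars below give the quartiles and median over all 4616 genes. The squares of 5 factors lie left of their circles, while EEF1A2 stands apart on the right.

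eEF2, the translocase, had a log2 TE of -0.25 in shSCR and of -1.39 in shTINCR cells in the authors' deposited table. Its TE was thus close to that of the typical gene in control cells, with 1756 of 4616 genes below it, and in shTINCR cells only 336 genes were lower. Its TE fell to 0.453-fold, a log2 change of -1.14 with an adjusted p of 5.19e-45 in the authors' deposited table. EEF2 was first of 4616 genes both by the size of the fall and by the smallness of the p-value. A gene of a small nucleolar RNA, SNORD37, lies inside EEF2, and no named pseudogene of EEF2 is listed.

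EEF1A1, the main tRNA carrier of most proliferating cells, had a log2 TE of -0.63 in shSCR and of -1.69 in shTINCR cells in the authors' deposited table. It had the lowest TE of the 6 factors in each condition, and 188 of 4616 genes were lower in shTINCR cells, against 1104 in the control. Its TE fell to 0.481-fold (adjusted p = 4.59e-35), the third largest fall and the second smallest p-value of the authors' deposited table. Between EEF2 and EEF1A1 in the order of falls stood only the nuclear import receptor IPO7, at a log2 change of -1.09 in the authors' deposited table. TAF1D came next after EEF1A1, at a log2 change of -1.01. EEF1A1 has 50 named pseudogenes, more than any other factor here, and whether reads shared with such copies affect its value was not tested.

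EEF1A2, the other isoform of eEF1A, differed from EEF1A1 in level and in change. Its log2 TE was 1.12 in shSCR and 1.29 in shTINCR cells in the authors' deposited table, so that 4268 and 4315 of 4616 genes lay below it. The log2 change of 0.17 did not pass (adjusted p = 0.407), and 1222 genes had larger positive values in the authors' deposited table. TE of EEF1A2 was 3.36-fold that of EEF1A1 in shSCR cells and 7.86-fold that of EEF1A1 in shTINCR cells. The log2 changes of both isoforms differed by 1.22, a difference that could not be tested without values per library. The sources used here do not state how reads were divided between these similar mRNAs.

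The 3 subunits of eEF1B fell together, by less than EEF2 and EEF1A1. EEF1B2, the smaller exchange subunit, had a log2 TE of -0.17 in shSCR and -0.77 in shTINCR cells, a 0.661-fold change (adjusted p = 1.87e-09) in the authors' deposited table. EEF1G, the structural subunit that anchors the complex, went from -0.43 to -0.99 on the log2 TE scale, a 0.680-fold change (adjusted p = 2.49e-10) in the authors' deposited table. EEF1D, the larger exchange subunit, went from 0.36 to 0.02 on the same scale, a 0.791-fold change (adjusted p = 0.00265) in the authors' deposited table. Among all genes, the changes of EEF1B2, EEF1G and EEF1D ranked 35th, 51st and 319th from the lowest.

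EEF1B2 and EEF1G thus lay side by side in change, with log2 changes of -0.60 and -0.56, while EEF1D was the least changed of the 5 factors that fell. EEF1D was also the only factor that fell whose log2 TE stayed above the median of all genes in both conditions. Its gap in log2 TE to EEF1B2 was 0.53 in shSCR and 0.79 in shTINCR cells. Each of the 3 subunit genes has 8 named pseudogenes, and EEF1B2 has 2 genes of small nucleolar RNAs inside it, SNORA41 and SNORD51.

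In shSCR cells the order of log2 TE from the lowest was EEF1A1, EEF1G, EEF2, EEF1B2, EEF1D and EEF1A2. In shTINCR cells it was EEF1A1, EEF2, EEF1G, EEF1B2, EEF1D and EEF1A2, so that EEF2 passed below EEF1G. Whether neighbours in these orders differ beyond the spread of replicates cannot be said from the table. The distance from the lowest to the highest factor grew from 1.75 to 2.97 in log2 TE. Without EEF1A2 it was 0.989 in shSCR and 1.71 in shTINCR cells, so the 5 factors that fell also lay further apart after TINCR was targeted.

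**Figure D2:**
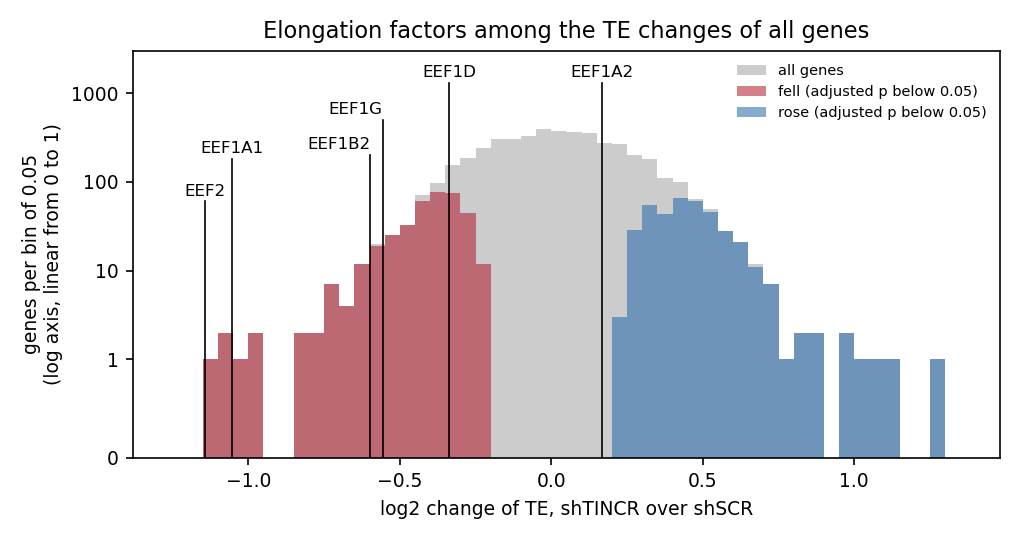
Number of genes (log axis, linear below 1) by the log2 change of TE, shTINCR over shSCR, for all 4616 genes in grey and for those that fell or rose at an adjusted p below 0.05 in colour. Black lines mark the 6 elongation factors: EEF2 and EEF1A1 lie at the lower end, EEF1B2 and EEF1G in the lower tail, EEF1D at the edge of the bulk and EEF1A2 within it.

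In the authors' deposited table, 4 of the 6 factors fell by 0.5 or more in log2 TE, as did 77 of all genes (1.67%). EEF1D, the fifth to fall, missed this size and also did not pass a Bonferroni adjustment over all rows (adjusted p = 0.58). Of the 51 genes with changes at or below that of EEF1G, 4 were elongation factors, 8 initiation factors and 5 ribosomal proteins, and 34 belonged to none of these groups.

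The genes nearest to EEF2 in log2 TE of both conditions were EIF3L, a subunit of initiation factor eIF3, POLR3G, a subunit of RNA polymerase III, and CHORDC1, an HSP90 co-chaperone. Their distances from EEF2 in the plane of log2 TE in shSCR and in shTINCR were 0.285, 0.34 and 0.362, and each had a smaller fall, at -0.74, -0.71 and -0.65 in log2 TE (the authors' deposited table). The nearest to EEF1A1 were the histone chaperone NAP1L1, the eIF2 subunit EIF2S3 and the poly(A)-binding protein PABPC1, at distances of 0.228, 0.313 and 0.323. The authors' deposited table gave them log2 changes of -0.84, -0.63 and -0.60. Likeness here rests on 2 conditions, with 1 value each.

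Genes that act with the elongation factors were then read from lists of partners. Of 12 measured partners of eEF1A, of the eEF1 complex and of the multi-tRNA synthetase complex that EEF1E1 belongs to, 3 fell (25%) and 1 rose (8.33%). Over all genes 8.17% fell and 8.23% rose, so the share that rose was near that of all genes. The median log2 change of the list was -0.18. TPT1, which binds eEF1A and the eEF1B exchange subunit, had the lowest log2 change of this list. Its log2 TE was 0.58 in shSCR and -0.17 in shTINCR cells (adjusted p of the change = 3.72e-15 in the authors' deposited table). Its log2 change of -0.75 lay between those of EEF1A1 and EEF1B2, and its start carries a run of 7 pyrimidines as printed above. The arginyl- and glutaminyl-tRNA synthetases RARS and QARS fell by 0.38 each and the methionyl-tRNA synthetase MARS rose by 0.35 in log2 TE, as the authors' deposited table gives them.

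**Figure D3:**
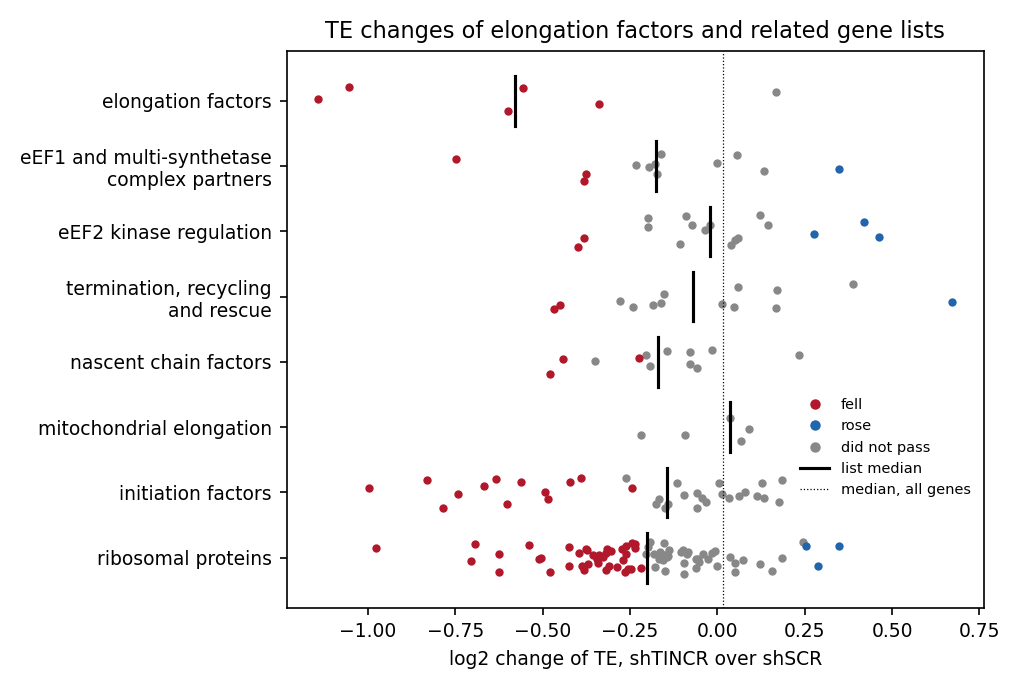
Log2 change of TE, shTINCR over shSCR, for each measured gene (points, spread vertically for legibility) of the elongation factors and 7 related lists, in red where it fell, in blue where it rose and in grey where it did not pass at an adjusted p below 0.05. Thick lines are list medians and the dotted line the median of all genes. The median of the elongation factors lies furthest left of these lists, at -0.58.

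A list drawn up around the eEF2 kinase, which also takes in phosphatase genes such as PPP2R1A, had 17 measured genes. Of these, 2 fell (11.8%) and 3 rose (17.6%), against 8.17% and 8.23% over all genes, with a median log2 change of -0.02. At an adjusted p below 0.01, 1 of the falls and 0 of the rises were left. The fall left was not that of CDK1, to which the authors' deposited table gives an adjusted p of 0.0118. CDK1, the mitotic kinase that can phosphorylate the eEF2 kinase, fell by 0.40 (log2 change from the authors' deposited table). RPS6KA1, a kinase of the RSK family that inhibits it, rose by 0.46, the mTORC1 subunit RPTOR by 0.42 and the phosphatase scaffold PPP2R1A by 0.28, again as log2 changes from the authors' deposited table. Among genes that modify the elongation factors, only METTL13, an eEF1A methyltransferase, and DPH1, of diphthamide synthesis on eEF2, were measured. Their log2 changes were 0.04 (adjusted p = 0.889) and 0.14 (adjusted p = 0.662), and neither passed in the authors' deposited table.

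EIF5A, which helps the ribosome through stretches such as polyproline, had a log2 TE of 1.51 in shSCR and 1.58 in shTINCR cells in the authors' deposited table. Neither it (adjusted p = 0.652) nor DHPS, the enzyme that starts its hypusine modification (adjusted p = 0.413), passed in the authors' deposited table. Among 5 measured factors of mitochondrial translation, of elongation and of release, 0 passed, with log2 changes from -0.22 for the elongation factor GFM1 to 0.09 for the release factor MTRF1L in the authors' deposited table. For selenocysteine, the 2 measured genes SEPHS1 and SEPHS2, named as selenophosphate synthetases, did not pass, at 0.02 and 0.0090 in log2 change (the authors' deposited table).

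Termination, recycling and rescue were covered by 14 measured genes, of which 2 fell (14.3%) and 1 rose (7.14%), with a median log2 change of -0.07. These shares lie near those over all genes (8.17% and 8.23%), so the calls named next are single genes rather than a change of the list. NEMF, of the quality control of stalled ribosomes, and MCTS1, which acts in the recycling of the small subunit, fell by 0.47 and 0.45, and the GTPase GTPBP1 rose by 0.67 (log2 changes from the authors' deposited table). Of 12 nascent chain factors with a row 3 fell (25%) and 0 rose, with a median of -0.17. These were NAA15, a subunit of the N-terminal acetyltransferase NatA (-0.48), SRP54 of the signal recognition particle (-0.44) and BTF3 of the nascent polypeptide-associated complex (-0.22) in the authors' deposited table. Each list other than the elongation factors had a median closer to that of all genes.

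The other cytosolic groups of the translation machinery give a scale for the elongation factors. Of 34 measured initiation factors 13 fell (38.2%) and 0 rose, against 8.17% and 8.23% over all genes. Their median log2 change was -0.14 and the lowest value -0.997, for EIF4B, an initiation factor that stimulates the helicase eIF4A, in the authors' deposited table. Of 80 measured ribosomal proteins, near copies such as the -like genes included, 39 fell (48.75%) and 3 rose (3.75%). Their median was -0.20 and the lowest value -0.98, for RPL13A, in the authors' deposited table. EEF2 and EEF1A1 lay below every member of these groups. No test of the difference between the groups was made, since single genes are not replicates of a condition.

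Over all measured genes with a start window, TE of 76 of 334 with a TOP-like start fell (22.8%) and that of 16 rose, while 241 of 3523 without one fell (6.84%) and 292 rose, counted from the authors' deposited table. The median log2 changes of these groups were -0.09 and 0.03. EEF2 had the lowest value of the group with a TOP-like start, which also holds IPO7, and the lowest value of the group without one was -0.73. Without ribosomal proteins, initiation and elongation factors, 45 of 277 genes with a TOP-like start fell (16.2%). Among ribosomal proteins, the shares with and without one were close: 23 of 46 with a TOP-like start fell (50%, median -0.22) and 9 of 19 without one (47.4%, median -0.19). Of the initiation factors, 5 of 8 with a TOP-like start fell (median -0.56) and 3 of 20 without one (median -0.04). These counts leave out genes without a window, such as EIF3L, at a log2 change of -0.74. With such genes included, 39 of 80 ribosomal proteins and 13 of 34 initiation factors fell. Of the 51 genes at or below the change of EEF1G, 42 had a window, and 20 of these had a TOP-like start.

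**Figure D4:**
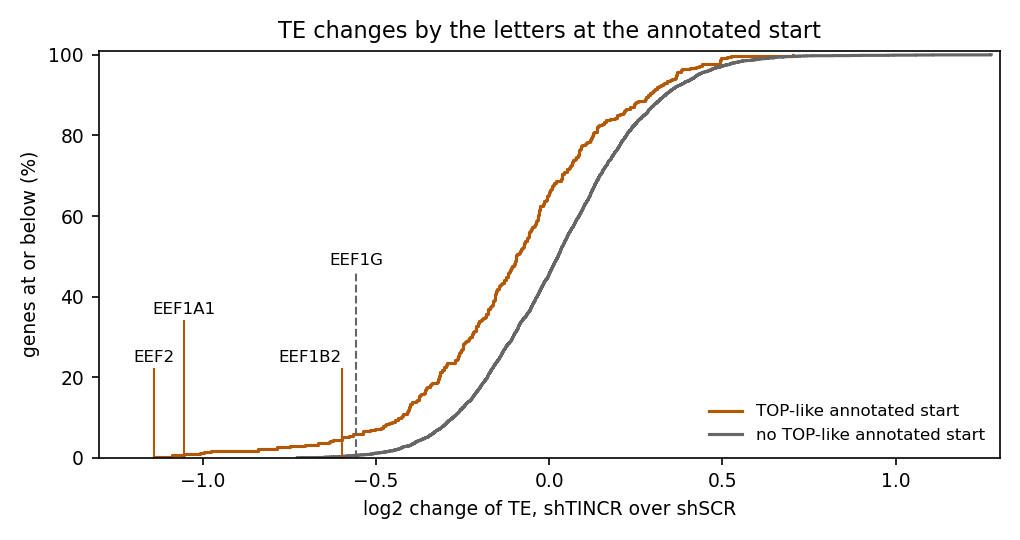
Cumulative share of genes (%) by the log2 change of TE, shTINCR over shSCR, for 334 genes with a TOP-like annotated start and 3523 without one. Solid lines mark EEF2, EEF1A1 and EEF1B2, which have such a start, and the dashed line EEF1G, which has none by this count; the curve of genes with a TOP-like start lies left of the other over most of the range.

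A few traits of the counted genes moved with the results, and their part in them was not tested. Of 234 measured genes with a small nucleolar RNA gene inside, 52 fell and 10 rose (median log2 change -0.09), against 325 and 370 of the 4382 others (median 0.02). Of 1166 measured genes with named pseudogenes, 180 fell and 69 rose (median -0.05), against 197 and 311 of the 3450 others (median 0.04). EEF2 is in the first of these groups only, EEF1A1, EEF1D and EEF1G in the second only, EEF1B2 in both and EEF1A2 in neither. As a check of the cell type, 9 of 11 melanocyte and melanoma markers had a row (TYRP1 and PAX3 had none), against 0 of 6 keratinocyte, 1 of 6 fibroblast, 1 of 5 leukocyte and 0 of 3 endothelial markers. A row shows only that a gene was measured, since the table holds no expression level, and TINCR itself had 0 rows.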

How the data were processed

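Footprint and RNA libraries, 8 in all, were processed with hg19 and DESeq 1.10.1, HTSeq 0.5.3p9, TopHat2 2.0.8, SAMtools 0.1.18, Bowtie2 2.1.0 and CASAVA 1.9, whose roles are not stated, per the submitters' processing notes. Neither the tool behind the TE columns nor the counted region nor the treatment of shared reads was given in the sources used here. The deposited columns are, per the file headers, log2 TE per condition, the log2 change of TE (2 versions and a final one) and p-values for each, with an adjusted one. In each of the 4616 rows the higher p-value of both versions had been taken, which for the 6 elongation factors was always that of the first version. The deposited adjusted p-value was that of Benjamini and Hochberg over the whole table. With 0 columns of single libraries, the planned edgeR count test was not run.

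A gene counted as changed below an adjusted p of 0.05, and folds were computed from the deposited log2 changes. The text names all measured members and each list gene that passed, plus the 2 with the smallest p per list. It also names the 3 genes nearest to each of EEF2 and EEF1A1 in log2 TE. IPO7 and TAF1D are named as next to EEF1A1 in the order of falls. EIF4B and RPL13A are named as the lowest of their groups, chosen after their values were seen. Of the list genes that passed, 1 is not reported here by name. Members and lists were chosen with earlier results of these data known. Symbols were matched to RefSeq GRCh38.p14 (4465 current, 139 older, 12 unmatched). The adjustment and the counting were tested on simulated data. Python 3.11.15, pandas 2.3.3, numpy 2.4.6 and matplotlib 3.10.9 were used.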

Additional observations from a re-analysis of the deposited data

How the results depend on the processing

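The falls of EEF2, EEF1A1, EEF1B2 and EEF1G passed with the p-values of the second version, a threshold of 0.01, a Bonferroni adjustment and a minimum log2 change of 0.5. The other alternatives could not end a call: for these genes the first version's p is the final p, a threshold of 0.1 only adds calls, and the difference of the log2 TE values and the 2 centrings keep the deposited p. Over all settings the log2 changes ranged from -1.16 to -1.14, -1.07 to -1.05, -0.61 to -0.60 and -0.57 to -0.56. EEF1A2 (0.15 to 0.17) did not pass with either version's p or at 0.1, the settings that could have added it. The fall of EEF1D, at -0.34, was lost with Bonferroni (adjusted p = 0.58) and with the size minimum.

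Over the whole table, 377 falls and 380 rises became 194 and 167 at a threshold of 0.01, 75 and 45 with Bonferroni, and 77 and 124 with the size minimum. The 9 lists from the eEF1 partners to the nascent chain factors, which hold none of the elongation factors themselves, were counted together. Their 10 falls and 5 rises became 8 and 2 at 0.01, 1 and 0 with Bonferroni, and 1 and 1 with the size minimum. The 13 falls of initiation factors became 11 at 0.01, 9 with Bonferroni and 8 with the size minimum. The 39 falls of ribosomal proteins became 29 at 0.01, 15 with Bonferroni and 8 with the size minimum. Their 3 rises became 5 with the second version, 1 at 0.01 and 0 with Bonferroni or the size minimum. Stricter thresholds give fewer calls by construction. No paired analysis was possible because the table holds no values per library; for the same reason no replicate was left out and the alternatives of the count test were not run.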
